A study of Homo sapiens with 6 samples.

Results

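The 9 genes described here encode the cytidine deaminase CDA, the deoxycytidylate deaminase DCTD and the 7 APOBEC3 DNA cytosine deaminases APOBEC3A, APOBEC3B, APOBEC3C, APOBEC3D, APOBEC3F, APOBEC3G and APOBEC3H. They were chosen by gene symbol, and each has 1 row among the 19077 genes of the table. Their RNA was read from 6 sequencing libraries made from SW1990, a human pancreatic cancer cell line of epithelial type. One library came from unsorted parental cells grown without drug. A second came from a gemcitabine-resistant derivative whose medium held 100 nM gemcitabine, so that resistance and the presence of the drug cannot be told apart. The other 4 came from drug-free parental cells sorted by flow cytometry for the pluripotency glycan TRA-1-81 into 2 positive and 2 negative libraries. Each sorted library carries the number 0603 or 0610, whose meaning the labels do not give. Nothing in the labels says that libraries of a group were grown as separate cultures, so p-values reflect the spread among these samples alone, which may be technical. Nor do the labels say whether the resistant derivative is 1 clone.

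Cytosine deaminases remove the amino group of cytosine and leave uracil, using a zinc ion held in the active site. CDA acts on the free nucleosides cytidine and deoxycytidine in pyrimidine salvage and is the enzyme that inactivates gemcitabine, an analogue of deoxycytidine. DCTD acts one phosphorylation step later, turning dCMP into dUMP, and it can also deaminate gemcitabine monophosphate. The APOBEC3 enzymes act on cytosines within single-stranded DNA. They restrict retroviruses and retrotransposons, several of their genes are known to be induced by interferon, and the deamination of tumour DNA by APOBEC3A and APOBEC3B is a known source of mutations in cancers.

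The family shares 1 structural element, the stretch that holds the zinc, and its coding sequence is shown for 5 segments because likeness between members bears on how sequencing reads are divided among them. Each segment was read from the GENCODE coding sequence of the transcript that the table's RefSeq identifier pairs with. It runs 5′ to 3′ on the coding strand from the codon of the first zinc ligand (histidine, or cysteine in CDA) to that of the last cysteine. Capitals mark the codons of that first ligand, of the catalytic glutamate, of the proline and cysteine pair and of the final cysteine.
CDA: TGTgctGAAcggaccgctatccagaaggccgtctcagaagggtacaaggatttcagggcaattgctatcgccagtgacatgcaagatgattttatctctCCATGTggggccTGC
APOBEC3A: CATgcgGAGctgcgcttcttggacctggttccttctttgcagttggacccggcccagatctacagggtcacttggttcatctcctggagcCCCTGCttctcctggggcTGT
APOBEC3B second segment: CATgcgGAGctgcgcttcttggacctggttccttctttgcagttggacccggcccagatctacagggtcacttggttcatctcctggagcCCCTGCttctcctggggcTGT
APOBEC3B first segment: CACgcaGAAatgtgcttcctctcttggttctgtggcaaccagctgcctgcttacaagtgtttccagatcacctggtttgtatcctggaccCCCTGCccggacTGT
APOBEC3C: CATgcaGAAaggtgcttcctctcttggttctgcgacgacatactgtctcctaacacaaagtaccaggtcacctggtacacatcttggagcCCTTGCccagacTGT
APOBEC3B, APOBEC3D, APOBEC3F and APOBEC3G each held 2 such segments, and the other 5 genes held 1. The segment of APOBEC3A and the second segment of APOBEC3B were the same in all 111 bases. The first segment of APOBEC3B, 105 bases long, was identical to the first of APOBEC3F, and the second segments of APOBEC3D and APOBEC3F were identical as well. The APOBEC3C segment differed from the second segment of APOBEC3F at 4 positions, an identity of 96.2%. CDA stood far from all of these, with 53.4% of aligned bases in common with APOBEC3A.

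The same likeness was counted over whole transcripts. Of all 50-base windows of the APOBEC3B transcript, 50.5% were also found in another APOBEC3 transcript, and 33.4% were found in APOBEC3A. The share was 24% for APOBEC3F, 22.7% for APOBEC3A, 19.1% for APOBEC3G, 15.2% for APOBEC3D and 1.16% for APOBEC3C. It was 0% for APOBEC3H, CDA and DCTD, so the values of these 3 genes and of APOBEC3C rest, within the family, almost wholly on sequence of their own. Fragments from the shared stretches of the other genes may have been divided between rows or left out in ways not stated, and the values of those genes are uncertain to that extent.

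Levels are given in FPKM (fragments per kilobase, scaled to the mapped fragments), which is corrected for length and so allows genes to be set side by side. Judged roughly from the lowest nonzero values, 3 fragments on a 1 kb transcript were worth 0.175 FPKM in unsorted parental cells, 0.145 in resistant cells and 0.0974 to 0.111 after sorting. The libraries each had 11164 to 11729 genes at 1 FPKM or above. All 7 epithelial and ductal markers checked were expressed, with summed FPKM of 4501 to 6050 per library. None of 9 T and NK cell markers reached an FPKM of 1 in any library, nor did any of 4 B cell markers, and MS4A1 was at 0 throughout. Of 7 myeloid markers, CD68 and LYZ were above 1 and TYROBP was at 0 in every library. The myeloid sum was 54.8 in the resistant library, 51.9 of it from CD68, against 19.3 to 29.4 in the other 5. Fibroblast markers summed to 20.2 in the resistant library and 2.86 to 5.38 in the others. COL1A1 was above 1 in every library, and LUM in all but the unsorted parental one, where it was at 0.729. Endothelial markers summed to 1.05 to 4.79 and were lowest in the resistant library. The part of CD68, COL1A1 and LUM in the deaminase results was not tested.

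CDA and 4 of the 7 APOBEC3 genes, APOBEC3B, APOBEC3C, APOBEC3F and APOBEC3G, exceeded their unsorted parental level at least 2-fold in the resistant library, and DCTD was at nearly the same level in both. Here and below, differences are on the log2(FPKM + 1) scale, which understates those of low genes, and 2-fold means 1 unit on it. The largest difference was that of APOBEC3B. Across all 12066 genes with an FPKM of 1 or more in either library, 13.5% exceeded their parental level by as much. Of the 9 members, 8 passed that minimum, APOBEC3D, APOBEC3G and APOBEC3H through the resistant library alone. The median difference over all 9 members, APOBEC3A under the minimum included, was 1.15, the value of APOBEC3G. Over the 12066 genes past the minimum it was 0.09. The resistant and the unsorted parental state have 1 library each, so this comparison has no replicate check and no p-value. In cell populations of this kind, fewer cells of a type and less RNA per cell cannot be told apart.

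**Figure D1:**
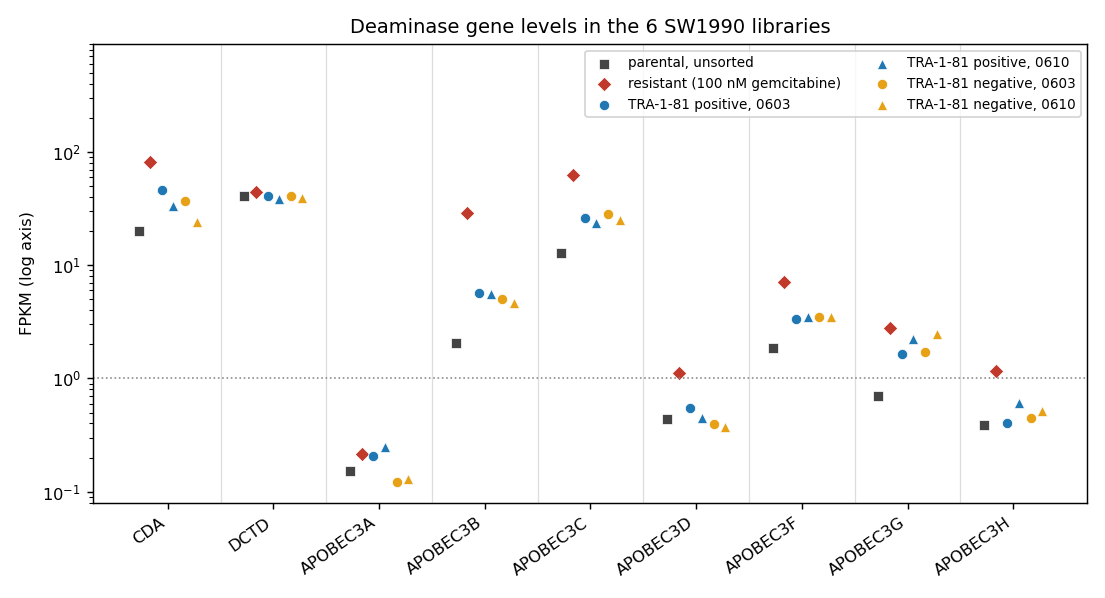
FPKM of the 9 deaminase genes in each of the 6 SW1990 libraries, on a log axis, 1 point per library, with a dotted line at an FPKM of 1. The red resistant point is the highest for every gene except APOBEC3A, and APOBEC3A stays under 1 in all 6 libraries.

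CDA lies at chr1:20915444-20945400 in hg19. Its FPKM was 20.2 in the unsorted parental library and 81.0 in the resistant one. In the sorted libraries it was 45.8 in positive 0603, 36.7 in negative 0603, 33.6 in positive 0610 and 24.3 in negative 0610. The resistant library was thus the highest and the unsorted parental the lowest, and the 4 sorted ones lay between them without overlap. The resistant FPKM was 4.02 times the parental value and 2.31 times the sorted mean, log2 differences of 1.96 and 1.22. Among the sorted libraries both 0603 libraries were above both 0610 libraries, and the positive library was above the negative one of the same number each time. In the resistant library CDA had the highest FPKM of the 9 genes, whereas in the unsorted parental library DCTD did.

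DCTD lies at chr4:183811244-183838630 in hg19. Its FPKM was 41.0 in the unsorted parental and 44.1 in the resistant library, and 41.1, 41.3, 38.4 and 38.9 in positive 0603, negative 0603, positive 0610 and negative 0610. All 6 values lay close together, with the resistant one at the top. The resistant library was 1.08 times the parental one, a log2 difference of 0.10 that became -0.0070 after quantile normalization of the libraries. Quantile normalization shifted the median difference of all genes from 0.09 to -0.07 and the share of higher genes among those 2-fold apart from 66.2% to 52.9%. DCTD therefore sat near the median of all genes under either scaling.

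The APOBEC3 genes form a row on chromosome 22 that spans 146.5 kb, chr22:39353527-39500072 in hg19. Summed over the 7 genes, FPKM was 18.5 in unsorted parental cells, 103.2 in resistant cells and 36.3 to 39.5 in the sorted libraries. APOBEC3C gave the largest part of that sum in every library, between 60.2% in resistant cells and 71.6% in negative 0603. APOBEC3B gave 11.1% in unsorted parental, 12.8% to 15.3% in sorted and 27.8% in resistant cells. The ratio of APOBEC3C to APOBEC3B was 6.31 in unsorted parental cells, 4.29 to 5.61 in the sorted libraries and 2.17 in resistant cells. The composition of APOBEC3 RNA thus differed between the resistant library and the other 5, with APOBEC3B taking a larger part. A further row of the table, the hybrid gene APOBEC3A_B formed by a deletion between those neighbours, was at 0 or within rounding of it in all 6 libraries.

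**Figure D2:**
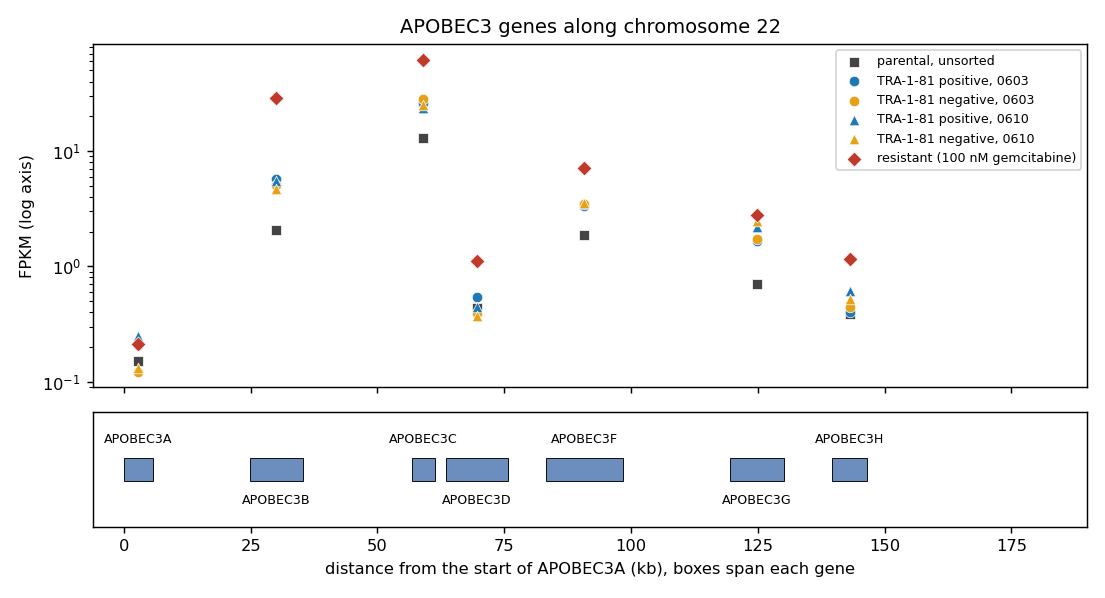
FPKM of the 7 APOBEC3 genes (upper panel, log axis, 1 point per library) above a map of the cluster (lower panel, boxes span each gene, distance from the start of APOBEC3A in kb). The resistant library is highest for the 6 genes from APOBEC3B to APOBEC3H, and APOBEC3C has the highest level in every library.

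APOBEC3A, at chr22:39353527-39359188, encodes a 1-domain enzyme with high activity on DNA and is best known from monocytes. Its FPKM was 0.152 in unsorted parental, 0.214 in resistant, 0.206 in positive 0603, 0.122 in negative 0603, 0.25 in positive 0610 and 0.13 in negative 0610. These levels rest on about 3.8 to 9.8 fragments per library. Every value was under 1, the resistant one lay inside the range of the parental line, and no difference of resistant from parental-line cells was detectable at this depth. The difference between resistant and parental of 0.07 turned to -0.05 under quantile normalization.

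APOBEC3B, at chr22:39378404-39388784, encodes a nuclear enzyme with 2 deaminase domains. Its FPKM was 2.05 in unsorted parental and 28.7 in resistant cells, from about 54 and 910 fragments. The sorted libraries gave 5.71 in positive 0603, 5.04 in negative 0603, 5.53 in positive 0610 and 4.67 in negative 0610. Resistant cells were far above all 5 parental-line libraries, and the 4 sorted libraries lay together above the unsorted one. The resistant FPKM was 14.0 times the unsorted parental value and 5.48 times the sorted mean, log2 differences of 3.28 and 2.25. Because APOBEC3A and APOBEC3B share sequence, the sum of both rows was also compared, a choice made after seeing the data. It gave a difference of 3.22. With APOBEC3A at 0.152 and 0.214 FPKM in these 2 libraries, the sum could hardly differ from APOBEC3B alone and does not settle how shared reads were divided. It also leaves out the 10.4% and 6.81% of APOBEC3B windows found in APOBEC3D and APOBEC3F.

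APOBEC3C, at chr22:39410265-39414825, encodes a 1-domain enzyme with weak antiviral activity. It had the highest FPKM of the cluster, 12.9 in unsorted parental and 62.1 in resistant cells. In the sorted libraries it was 26.1 in positive 0603, 28.2 in negative 0603, 23.7 in positive 0610 and 24.9 in negative 0610. The groups did not overlap, with unsorted parental lowest, sorted in the middle and resistant highest. Resistant cells had 4.81 times the unsorted parental FPKM and 2.41 times the sorted mean, log2 differences of 2.18 and 1.24. Of the 7 genes it is the one with a high level and nearly no sequence in common with the rest over 50 bases.

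APOBEC3D, APOBEC3F and APOBEC3G encode enzymes with 2 domains, and APOBEC3H one with a single domain. All 4 can be packaged into human immunodeficiency virus particles that lack the viral protein Vif. APOBEC3D (chr22:39417118-39429256) was at 0.434 in unsorted parental, 1.11 in resistant, 0.546 in positive 0603, 0.392 in negative 0603, 0.446 in positive 0610 and 0.373 in negative 0610. The resistant value was the only one above 1, and the unsorted parental value lay among the sorted ones. The log2 difference of 0.56 fell short of 2-fold, although the FPKM ratio was 2.55.

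APOBEC3F (chr22:39436673-39451975) was at 1.87 in unsorted parental and 7.06 in resistant cells. Its sorted values were 3.37 in positive 0603, 3.5 in negative 0603, 3.48 in positive 0610 and 3.52 in negative 0610. The 4 sorted libraries were almost level and fell between the 2 unsorted ones. The difference of resistant from unsorted parental was 1.49 and that from the sorted mean 0.85.

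APOBEC3G (chr22:39473010-39483748) was at 0.706 in unsorted parental and 2.79 in resistant cells. Its sorted values were 1.66 in positive 0603, 1.73 in negative 0603, 2.21 in positive 0610 and 2.49 in negative 0610. Here the highest sorted library came near the resistant one, and both 0610 libraries were above both 0603 libraries. The difference of resistant from unsorted parental was 1.15, which fell under 2-fold at 0.85 after quantile normalization, and that from the sorted mean was 0.34.

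APOBEC3H (chr22:39493229-39500072) was at 0.389 in unsorted parental, 1.16 in resistant, 0.403 in positive 0603, 0.444 in negative 0603, 0.606 in positive 0610 and 0.52 in negative 0610. The resistant library was again highest, at a level near 1, and rested on about 25 fragments against 7 to 17 elsewhere. The log2 difference from unsorted parental was 0.64 and the FPKM ratio 2.98.

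With the sorted libraries added to the reference, the resistant library was above all 5 parental-line libraries for 8 of the 9 members, all except APOBEC3A. Among all 12251 genes with an FPKM of 1 or more in any library, this held for 38.5%. APOBEC3D and APOBEC3H reached that FPKM in the resistant library alone, and so entered the count through the library in which they were high. A stricter rule, above all 5 and at least 2-fold above the sorted mean, was met by CDA, APOBEC3B and APOBEC3C, 3 of 9 members, and by 8.04% of all genes. The sorted libraries themselves differed from the unsorted parental one. Among all genes with an FPKM of 1 or more in either state, 44.8% had all 4 above it. So did 5 of the 6 members that passed this minimum, CDA, APOBEC3B, APOBEC3C, APOBEC3F and APOBEC3G. APOBEC3G passed it through the sorted libraries alone, those in which it was high. At least 2-fold on the log2(FPKM + 1) scale was reached by APOBEC3B alone, at 1.03, against 5.39% of all genes. In FPKM the sorted mean was 2.56 times the unsorted parental value for APOBEC3B and 2.86 times for APOBEC3G. The log2 difference of APOBEC3G between these, 0.81, was larger than its remaining step from the sorted mean to resistant cells. Sorting, culture and library preparation all differ or may differ between these libraries, and their effects cannot be told apart.

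**Figure D3:**
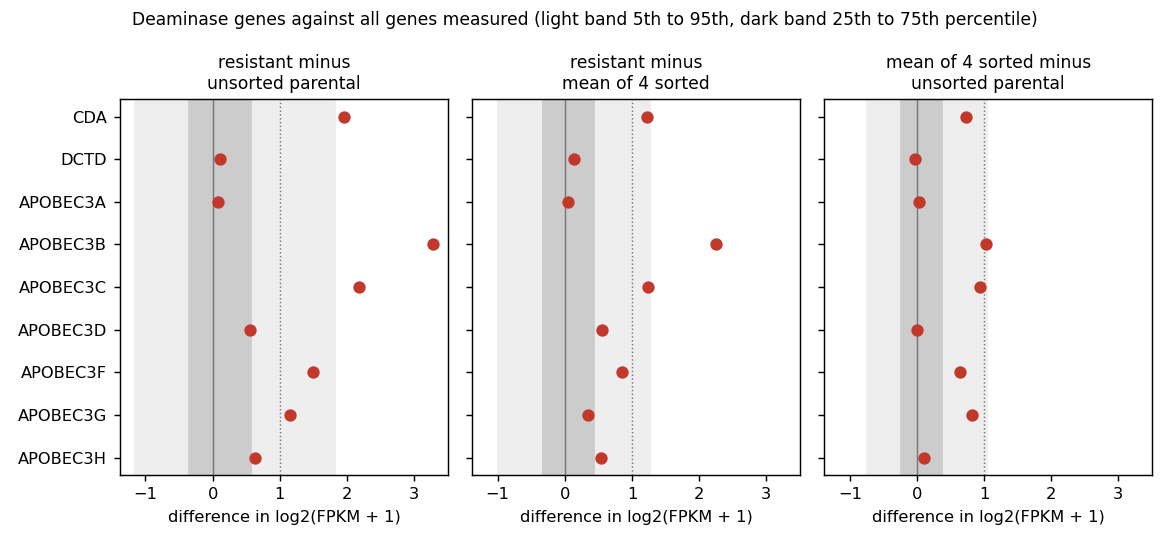
Difference of each member on the log2(FPKM + 1) scale between the resistant and the unsorted parental library, between the resistant library and the mean of the 4 sorted ones, and between that mean and the unsorted parental library. Grey bands hold the middle of all genes (25th to 75th and 5th to 95th percentile), and APOBEC3B and APOBEC3C lie right of the wider band in the first panel, as CDA does, while DCTD lies in the dark band in all 3.

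TRA-1-81 positive and negative cells were compared over the 4 sorted libraries, in which 6 members were expressed well enough to be tested. No member differed by limma's moderated test with Benjamini-Hochberg adjustment, and 0.00867% of the 11533 genes tested did, which is 1 gene, while 565 genes had an unadjusted p under 0.05. The lowest unadjusted p among the members was 0.06902, for APOBEC3B. CDA was at 39.7 ± 8.59 in positive and 30.5 ± 8.77 FPKM in negative libraries (SD, n = 2 each), and the groups overlapped. Its positive minus negative difference was 0.38 ± 0.25 (SE, limma adjusted p = 0.9999), with 0.31 within 0603 and 0.45 within 0610. It was 0.09 without the negative library 0610 and 0.67 without the negative library 0603, and 0.16 and 0.60 without the positive libraries 0603 and 0610.

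APOBEC3B was at 5.62 ± 0.122 in positive and 4.85 ± 0.259 FPKM in negative libraries (SD, n = 2 each). Both positive libraries were above both negative ones, by 0.15 within 0603 and 0.21 within 0610. The pooled difference of 0.18 ± 0.0757 (SE) had a limma adjusted p of 0.9999. APOBEC3C went the other way, at 24.9 ± 1.71 in positive and 26.6 ± 2.37 FPKM in negative libraries, with differences of -0.11 within 0603 and -0.07 within 0610. For APOBEC3C the groups overlapped and the pooled difference was -0.09 ± 0.0957 (SE, limma adjusted p = 0.9999). DCTD, APOBEC3F and APOBEC3G had pooled differences of -0.01, -0.03 and -0.08, each with a limma adjusted p of 0.9999 and each negative within both numbers. APOBEC3A and APOBEC3D were under an FPKM of 1 in all 4 libraries and were not tested. Both stood higher in the positive than in the negative library of each number, APOBEC3A by 0.10 and 0.15 and APOBEC3D by 0.15 and 0.07. APOBEC3H was too low to be tested as well.

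**Figure D4:**
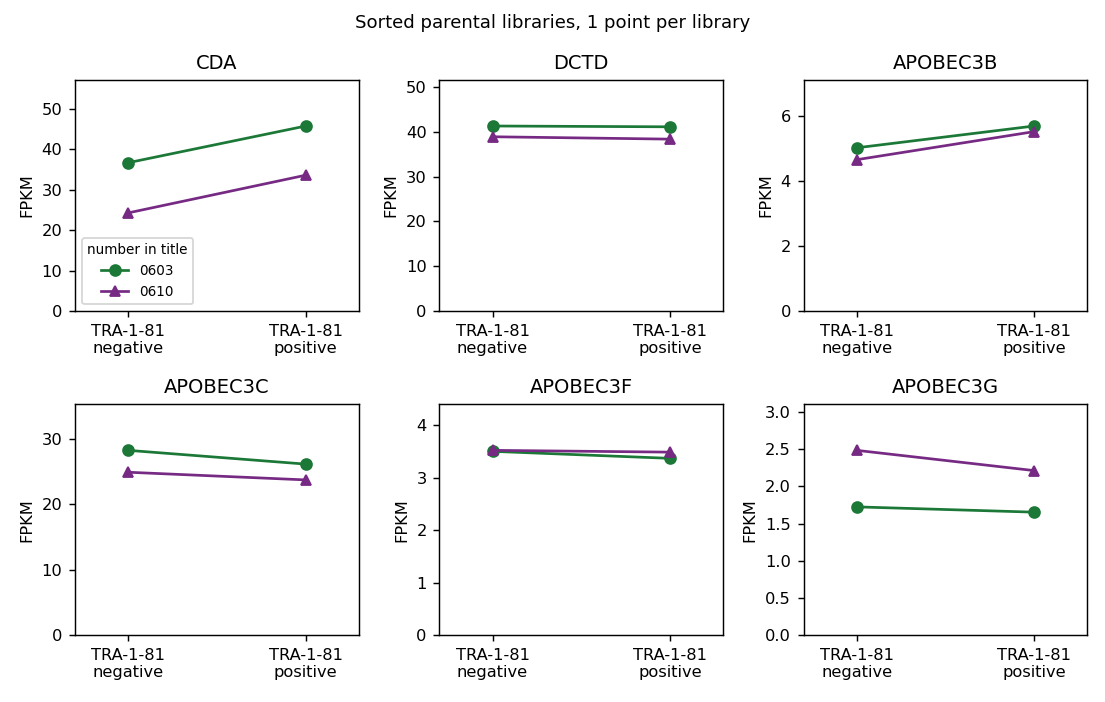
FPKM of the 6 tested members in the 4 sorted libraries, with a line joining the negative and positive library of the same number (0603 circles, 0610 triangles). CDA and APOBEC3B slope upward to the positive library in both numbers, and APOBEC3G is separated by number, with 1.66 and 1.73 in 0603 and 2.21 and 2.49 in 0610.

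Between the numbers, 9.08% of the 11533 genes differed, 657 higher and 390 lower in 0610, by the same limma test. None of the 6 tested members was among them, although CDA, APOBEC3C and APOBEC3G had an unadjusted p under 0.05, as had 3507 of all genes tested. CDA was lower in 0610 by a log2 difference of -0.51 ± 0.177 (SE, limma adjusted p = 0.1337). Both 0610 libraries were below both 0603 ones. APOBEC3G was higher in 0610 by 0.31 ± 0.0791 (SE, limma adjusted p = 0.07106), and APOBEC3C lower, at -0.16 ± 0.0565 (SE, limma adjusted p = 0.1448). DCTD, APOBEC3B and APOBEC3F had differences of -0.09, -0.06 and 0.02, with limma adjusted p of 0.1924, 0.6963 and 0.8364.

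Other genes of the same pathways were read from 7 lists. Among 10 expressed genes for other base and nucleoside deaminases, resistant cells had 2 at least 2-fold above and 1 below the unsorted parental level, with a median difference of 0.42. ADA, adenosine deaminase, had an FPKM of 7.92 in unsorted parental and 20.4 in resistant cells. AMPD3, an AMP deaminase, had 1.65 and 10.1. The guanine deaminase gene GDA went the other way, with 53.04 and 16.8. Its sorted values of 14.8 to 21.95 lay around the resistant one, so GDA separated the unsorted parental library from all others.

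Of 19 expressed genes that handle deoxycytidine, other pyrimidine nucleosides or dUTP, 4 were 2-fold higher and 2 lower, with a median of 0.29. These counts and those of the other deaminases lay not far from the shares over all genes and are not read as a result about either list. TYMP, thymidine phosphorylase, had an FPKM of 4.69 in the unsorted parental library, 19.4 to 41.5 after sorting and 69.8 with resistance. CMPK2, a mitochondrial UMP and CMP kinase induced by interferon, had 1.87 and 23.6 without sorting. The sorted libraries, at 18.9 to 28.5, were as high as the resistant one for CMPK2. RRM1, which encodes the large ribonucleotide reductase subunit that gemcitabine diphosphate inhibits, was at 39.3 in parental, 46.9 to 59.0 in sorted and 126.9 in resistant cells. NT5C, a deoxyribonucleotidase, was lower in resistant cells at 22.5 against 56.1, and UPP1, uridine phosphorylase, at 48.3 against 107.8. Both were also low in the sorted libraries, at 25.2 to 29.2 and 43.8 to 70.0. Genes for the excision of uracil from DNA and repair of the resulting abasic sites, which act on the product of the APOBEC3 enzymes, lay near the median of all genes. Of 11 expressed, only POLB, the gap-filling polymerase, was 2-fold apart, just past the threshold at 1.005. It had 15.1 FPKM in parental and 31.3 in resistant cells, and the list median was 0.03. SMUG1 was at 23.8 in parental, 15.7 to 16.9 in sorted and 35.6 in resistant cells, 1.09 above the sorted mean. The resistant library was above all 5 parental-line libraries for 5 of the 11 genes, beside 38.5% of all genes.

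The lists of regulators differed among themselves. All 28 interferon-stimulated genes were expressed, and resistant cells had 26 of them at least 2-fold above the unsorted parental level and none below it, with a median of 3.40. IFI27 had 21.2 FPKM in parental and 2841 in resistant cells, BST2 (tetherin, a restriction factor for enveloped viruses) 4.26 and 457.9, and IFI6 17.9 and 853.5. The same list had a median of 2.51 between the sorted mean and the unsorted parental library and 1.05 between resistant cells and the sorted mean, so most of its distance was already present among parental-line libraries. For the 7 APOBEC3 genes the medians of these steps were 0.64 and 0.55, with APOBEC3A, APOBEC3D and APOBEC3H at low levels that shrink differences on this scale. The second step was the larger for APOBEC3B (1.03, then 2.25), APOBEC3C (0.94, then 1.24) and APOBEC3F (0.64, then 0.85). For APOBEC3G it was the smaller (0.81, then 0.34). Of 15 expressed genes of interferon signalling, 10 were 2-fold higher and none lower, beside 13.5% of all genes higher. Among the 10, IFNB1 (0 and 1.22 FPKM in parental and resistant) and IFNL1 (0.105 and 1.35) passed the minimum through the resistant library alone. HERC5 (0.911 and 2.04) and TRIM22 (0.409 and 22.3) of the interferon-stimulated list passed it in the same way. IFNGR1 was at 16.0 and 77.6 and IRF7 at 2.17 and 13.2 in parental and resistant cells. IRF7 was higher still in the sorted libraries, at 17.3 to 24.3.

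Protein kinase C and NF-kB signalling is known to induce APOBEC3B in cultured cells. Of 12 genes of the list for both, 6 were 2-fold higher and none lower, with a median of 0.99, beside 13.5% of all genes higher. The protein kinase C genes PRKCA and PRKCD differed by 0.20 and -0.35, and MAP3K14 by -0.19. TNFAIP3, which encodes the NF-kB inhibitor A20, was at 2.4 in parental, 9.1 to 10.3 in sorted and 48.7 in resistant cells. BIRC3 was at 10.2, 19.4 to 25.8 and 77.1, and RELB, a subunit of non-canonical NF-kB, at 2.75, 8.15 to 12.5 and 19.7 in the same order. These 3 genes, like IFI27, BST2 and IFI6, were lowest in unsorted parental, intermediate in sorted and highest in resistant cells. They were named for their large difference between resistant and unsorted parental cells, so part of this order lies in the choice. Over the whole lists, the resistant library was above all 5 parental-line libraries for 24 of 28 interferon-stimulated genes. It was so for 7 of 12 genes of the NF-kB and protein kinase C list, beside 38.5% of all genes. The list of cell cycle and p53 regulators of APOBEC3B, whose 13 genes need not each regulate it, had a median of -0.13. None of the 13 was 2-fold higher. RBL2, a pocket protein of the repressive DREAM complex, was lower at 7.57 in resistant against 19.8 in parental cells. FOXM1 and E2F1 were lower too, short of 2-fold, at 66 against 120.8 and 19.4 against 35.7. From the sorted mean they differed by -1.10 and -1.03. The resistant library was above all 5 parental-line libraries for 3 of the 13 genes and below all 5 for 9. No share of all genes was taken for the latter. No gene of the 7 lists differed between TRA-1-81 fractions in the limma fit, which called 1 of all 11533 genes tested. The interferon-stimulated genes had a median positive minus negative difference of 0.29, beside 0.01 over all genes. Medians of the other lists ran from -0.01 to 0.12, and no list was tested as a set.

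**Figure D5:**
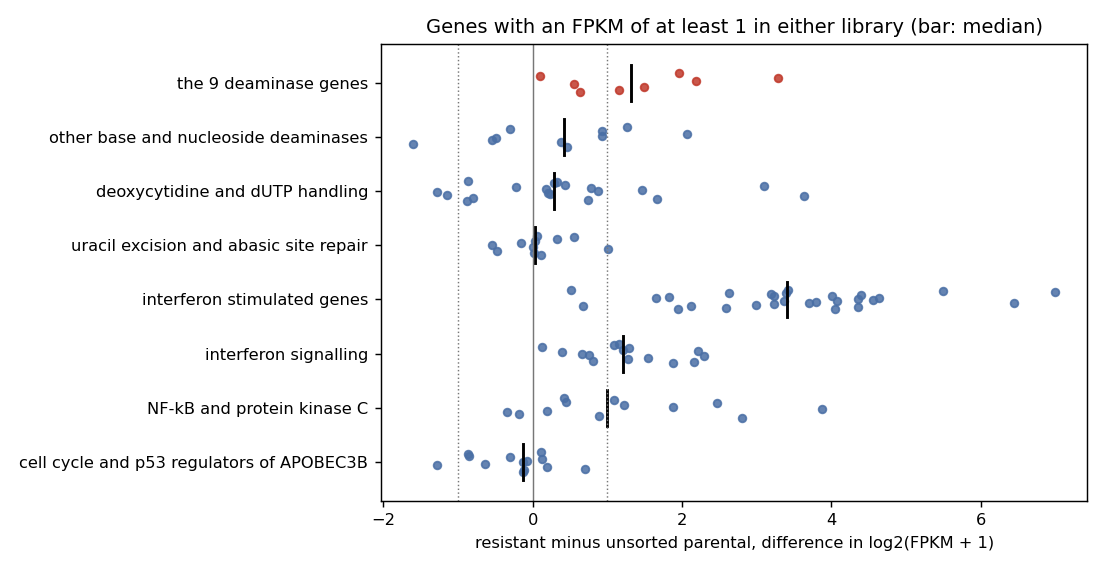
Difference between the resistant and the unsorted parental library on the log2(FPKM + 1) scale for the expressed members of each list (1 point per gene, bar at the median, dotted lines at 2-fold). The interferon-stimulated genes lie furthest right, with a median of 3.40, and the genes of uracil repair centre near 0. The row of the 9 deaminase genes shows the 8 that passed the FPKM minimum.

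The genes next to each locus were read in the same way. Beside CDA on chromosome 1, PINK1, a mitochondrial kinase, was at 14.4 in parental, 12.5 to 15.8 in sorted and 31.96 FPKM in resistant cells, and SH2D5 was 2-fold higher as well, at 0.868 and 4.67. DDOST, MUL1 and CAMK2N1 differed by 0.07, 0.25 and -0.15, and FAM43B, KIF17 and VWA5B1 were near or at 0. Around the APOBEC3 cluster the 8 neighbours were divided, 4 higher and 4 lower in resistant than in unsorted parental cells. CBX6 and NPTXR exceeded their unsorted parental level 2-fold in resistant cells, at 1.35 and 1.85, CBX7 was lower at -1.05, and DNAL4, SUN2, PDGFB, RPL3 and SYNGR1 lay between -0.99 and 0.58. Of these 8 only NPTXR was above all 5 parental-line libraries, beside 38.5% of all genes. Next to DCTD, VEGFC and CDKN2AIP were 2-fold higher, at 2.11 and 1.03, and TENM3, AGA, NEIL3, WWC2, CLDN22 and CLDN24 were not. Also above all 5 parental-line libraries were MUL1, PINK1, DDOST and SH2D5 beside CDA and NEIL3, VEGFC and CDKN2AIP beside DCTD. So were FAM43B, KIF17 and CLDN24, at an FPKM under 1. CAMK2N1, VWA5B1, TENM3, AGA, WWC2 and CLDN22 were not.

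Genes with the most similar profile were found by Pearson correlation of log2(FPKM + 1) over the 6 libraries among 9655 genes. As all genes share these libraries and n is 6, the values only rank genes. For CDA the closest were ZBTB9 (0.997), MITF, MAPRE2, POLR2A and C14orf169. For APOBEC3B they were KDM2A (0.9995), SLC25A43, ACSS1, TRIM21 and CLU, and for APOBEC3C GLCE (0.999), PDIA5, MPZL2, KEAP1 and AFAP1L1. MYO10, MMP1, SIK3, DPYSL3 and FBXO6 came nearest to APOBEC3F, LAMB2, SHROOM2, TSPAN4 and PLD3 to APOBEC3G, and STOML2, HSPE1, RANBP1, GRB2 and NME1 to DCTD. No member was compared with another here.

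Promoter sequence from RefSeq (GRCh38.p14, 250 bases before to 50 after the start) was matched for 3 of the 9 members. Those of CDA and APOBEC3H are shown because the FPKM of these genes in resistant cells was 4.02 and 2.98 times the unsorted parental value, against 1.08 times for DCTD, the third. They are read 5′ to 3′ on the gene's strand, from chr1:20588847-20589146 and chr22:39096994-39097293 in that build, both on the plus strand, and hold no capitals because none of the motifs searched was found.
CDA promoter: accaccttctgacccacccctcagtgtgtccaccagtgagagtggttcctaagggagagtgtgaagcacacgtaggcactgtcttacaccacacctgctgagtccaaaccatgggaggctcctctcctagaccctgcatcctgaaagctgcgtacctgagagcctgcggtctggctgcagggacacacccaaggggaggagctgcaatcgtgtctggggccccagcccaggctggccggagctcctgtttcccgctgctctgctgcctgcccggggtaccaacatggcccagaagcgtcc
APOBEC3H promoter: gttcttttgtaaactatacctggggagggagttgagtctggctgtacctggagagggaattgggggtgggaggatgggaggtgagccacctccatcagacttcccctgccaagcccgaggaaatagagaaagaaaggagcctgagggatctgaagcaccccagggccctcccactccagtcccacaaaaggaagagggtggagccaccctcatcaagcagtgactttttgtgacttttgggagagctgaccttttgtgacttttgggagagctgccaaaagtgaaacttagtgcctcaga
The motifs were searched on both strands and set beside their share of 35116 promoters of this length. The interferon response element core was written GAAANNGAA and is held by 8.11% of promoters, and the gamma-activated site TTCNNNGAA by 7.66%. An AP-1 site, TGANTCA, is held by 7.71%, and an NF-kB-like site, GGGNNTTCC, by 6.58%. The antioxidant response element core TGACNNNGC is held by 13.3%. The cell cycle homology region was searched as TTTGAA and is held by 15.2%, and the TATA box, searched as TATAAA, by 11.5%. The third promoter, that of DCTD, has 2 annotated starts whose windows overlap, and the antioxidant response letters occur once, in the overlap. The CDA window had 62% G and C with 8 CG pairs, and that of APOBEC3H 53.3% with 1 CG pair, beside medians of 58.7% and 14 over all promoters.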

How the data were processed

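The deposited data are a single table with 1 column per library. No unit stands in its header, and the authors' values are read as FPKM because the submitters' processing notes list Cufflinks 2.1.1, beside TopHat2 2.0.11, CASAVA 1.8.2 and hg19. Of 19312 rows, the row of highest mean was kept for each of 191 repeated symbols, which left 19077 genes. Table starts were raised by 1 to read as 1-based positions. Cufflinks divides fragments among transcripts, so counts were not recovered. Analysis used log2(FPKM + 1). Differences among the 4 sorted libraries were fitted by limma 3.58.1 under R 4.3.3 (mean trend, no covariate, two-sided, Benjamini-Hochberg adjusted p under 0.05) over 11533 genes with an FPKM of 1 or more in 2 or more of them, after the fit was tested on simulated data. Motifs, windows and levels were handled in Python 3.11.15.

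The members, lists and tests were chosen with earlier results of these data known. All 9 members are named, with the 5 most similar genes of each member at an FPKM of 1 or more in 2 or more libraries. Also named are up to 3 highest and 3 lowest genes past 2-fold in each list and the nearest 4 genes on each side of a locus. Some genes that this rule names are not reported here. HMCES, 1 symbol of the uracil repair list, was not analysed here. Alternatives changed the pseudocount, the scaling, the FPKM minimum, the handling of repeated symbols, the mean trend, the covariates, the reference library and the libraries included.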

Additional observations from a re-analysis of the deposited data

Results flagged for a closer look

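The positive minus negative difference of APOBEC3H had opposite signs in the 2 numbers, at -0.0413 within 0603 and 0.0793 within 0610 on the log2(FPKM + 1) scale. All 4 FPKM values were under 1, and the difference between the numbers was not tested.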

How the results depend on the processing

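The precision is limited by 1 library each of unsorted parental and resistant cells, by 2 per fraction, and by the few fragments behind APOBEC3A, APOBEC3D and APOBEC3H. In the comparison of fractions, 1 gene was called. The number called was 0 after quantile normalization, 0 without the FPKM minimum, 0 with a minimum of 5, and 1 to 3 when each library was left out. With the replicate block it was 1484, among them CDA (0.38, SE 0.0419, limma adjusted p = 0.0002801) and not APOBEC3B (0.05833). The numbers 0603 and 0610 are not taken to pair the libraries, since there are only 2 of them and the labels give no meaning, although the 0610 minus 0603 differences of positive and negative libraries correlated at 0.654 across genes. Between the numbers, 1047 genes were called, 111 without the minimum, 558 without the mean trend, 4753 with the fraction as a term, and 18 to 124 when each library was left out. The count of members 2-fold apart between resistant and unsorted parental cells, 5, became 3 with a pseudocount of 5 (CDA, APOBEC3B and APOBEC3C) and 3 with the sorted mean as the reference. It was 7 with a pseudocount of 0.1, which added APOBEC3D and APOBEC3H, and 4, without APOBEC3G, after quantile normalization or with a minimum of 5. The count outside all parental-line libraries, 3, became 6 with a pseudocount of 0.1. CDA, APOBEC3B and APOBEC3C passed both rules under every setting run. Some values near 0 changed sign. When each library was left out, the positive minus negative difference of APOBEC3G went from -0.2549 to 0.0996 (0.0599 without positive 0603), that of DCTD from -0.0613 to 0.0361 (0.0295 without negative 0603) and that of APOBEC3C from -0.1747 to 0.0006. The 0610 minus 0603 difference of APOBEC3B went from -0.1666 to 0.0385 (0.0121 without positive 0603), and that of APOBEC3F was -0.0420 after quantile normalization. Under the same normalization the resistant minus parental differences were -0.0070 for DCTD and -0.0496 for APOBEC3A. The cause of these changes was not tested.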
